A study of Mus musculus with 2 samples.

Results

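The 10 LIM factor and cofactor genes of this set are known from interneurons and other young neurons of the embryonic neural tube. They are the LIM-homeodomain genes Lhx1, Lhx5, Lhx2, Lhx9 and Lmx1b, the LIM-domain-binding cofactor genes Ldb1 and Ldb2, and the LIM-only genes Lmo1, Lmo3 and Lmo4. They were chosen by gene symbol rather than by a cutoff on a measured value, though with earlier results of these data known. All 10 were found among the 43346 gene identifiers of the deposited files. RNA came from neural tube, the precursor of brain and spinal cord, of B6NCrl embryos at embryonic day 11.5, with no allele or treatment named. Each library was made from tissue pooled over many embryos of both sexes, 109 embryos for replicate 1 and 88 for replicate 2, which the labels call biological replicates of a single experiment. No second tissue, age or treatment was set against them, so levels, their order and the match of the 2 pools are given without a test. The input was 10 ng of RNA over 200 bases long. The libraries held 27638068 and 29166901 expected counts, of which spike-ins took 5.72% and 5.02%.

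LIM-homeodomain proteins bind DNA through a homeodomain and bind partners through LIM domains. Ldb proteins dimerize and hold LIM-homeodomain proteins, or other LIM proteins, together in larger complexes on DNA, and the combination of LIM factors in a young neuron helps to set its class. LMO proteins have LIM domains but no homeodomain, and they compete with LIM-homeodomain proteins for Ldb or bridge Ldb to other DNA-binding proteins. In the developing spinal cord Lhx2 and Lhx9 mark the dorsal commissural class dI1, Lhx1 and Lhx5 mark several classes including dI2, dI4, dI6, V0 and V1, and Lmx1b marks dI5.

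Promoter sequence is shown for Lmo4, whose RNA came in near-equal shares from separate annotated starts, and for the distal start of Lmo3, as a contrast in base composition. Each window covers the 250 bases before a RefSeq start on GRCm38.p6, 5' to 3' on the minus strand, on which both genes lie. Capitals mark the GC box GGGCGG, searched on both strands, where overlapping matches each count.
Lmo4 upstream start, chr3:144205256-144205505: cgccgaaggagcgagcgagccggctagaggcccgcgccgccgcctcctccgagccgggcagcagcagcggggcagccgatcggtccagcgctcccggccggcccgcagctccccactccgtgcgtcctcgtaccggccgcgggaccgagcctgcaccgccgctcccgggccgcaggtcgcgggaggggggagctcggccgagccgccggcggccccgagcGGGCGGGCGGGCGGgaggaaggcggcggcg
Lmo4 internal start, chr3:144202397-144202646: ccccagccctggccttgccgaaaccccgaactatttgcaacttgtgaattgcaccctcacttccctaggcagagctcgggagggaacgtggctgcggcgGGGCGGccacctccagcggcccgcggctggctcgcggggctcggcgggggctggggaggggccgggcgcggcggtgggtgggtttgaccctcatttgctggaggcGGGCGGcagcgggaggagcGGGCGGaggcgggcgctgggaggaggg
Lmo3 distal start, chr6:138581969-138582218: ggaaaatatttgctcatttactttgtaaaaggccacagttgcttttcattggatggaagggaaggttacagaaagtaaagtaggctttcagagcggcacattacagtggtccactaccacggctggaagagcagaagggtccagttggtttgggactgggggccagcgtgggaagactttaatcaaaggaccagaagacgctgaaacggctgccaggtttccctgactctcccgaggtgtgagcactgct

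The upstream Lmo4 window held 3 overlapping GC boxes, which began 30, 26 and 22 bases before the start. The internal Lmo4 window also held 3 GC boxes, 151, 46 and 27 bases before its start. The Lmo3 window held none. A GC box was present in 32.7% of 32851 RefSeq promoter windows of the same length, so its presence in the Lmo4 windows is a description of their letters. The windows differed in base composition, with a GC content of 82.4% and 44 CpG dinucleotides before the upstream Lmo4 start, 73.6% and 25 before the internal Lmo4 start, and 50% and 6 before the Lmo3 start. The median RefSeq window had a GC content of 52.4% and 6 CpG, close to Lmo3. The homeodomain core TAATTA, present in 4.84% of windows, and the TATA box TATAAA, present in 12.4%, were in none of the 3 windows shown. The set of RefSeq promoter windows used here held 14 starts for 8 of the 10 genes, without Lhx5 and Ldb2.

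All 10 genes were detected, that is, at 1 TPM or more in both libraries. TPM is a level per transcript length, scaled to a common total, so that genes within a library can be compared. Detection in this sense held for 59.9% of 21474 protein-coding genes, the share to set beside the counts of detected genes in each list below. The median of the members was 16.5 TPM, against 4.39 TPM for all protein-coding genes and 19.9 TPM for the 12868 of them that were detected. The members therefore lay above the typical protein-coding gene and slightly below the typical detected gene. They covered a wide range, from Ldb1 at 76.6 TPM to Lmx1b at 1.33 TPM. These are levels of whole tissue, in which fewer cells of a type and less RNA per cell cannot be told apart.

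**Figure D1:**
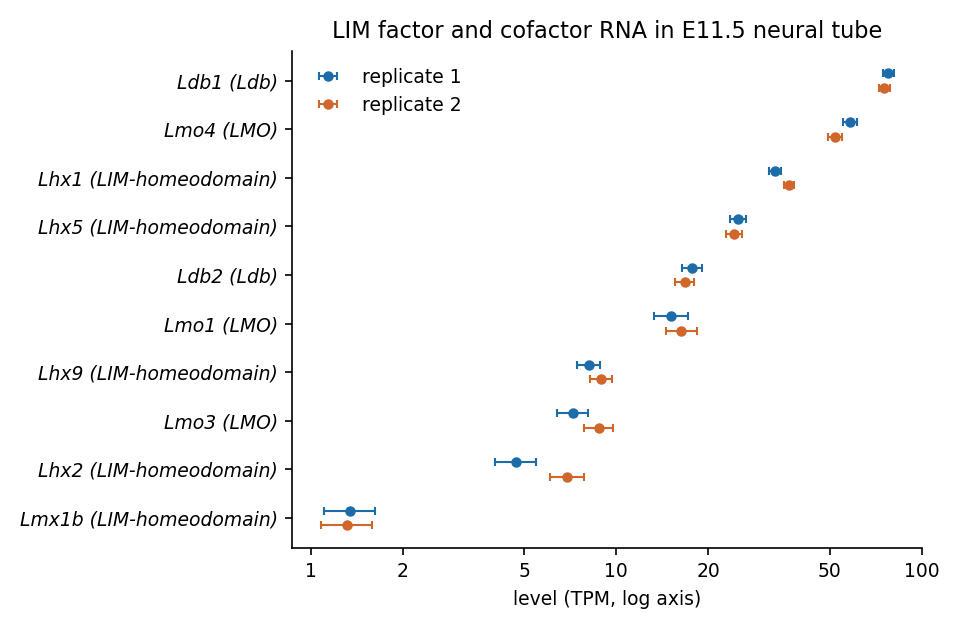
TPM of each member (log axis) in replicate 1 and replicate 2, with bars for the exact Poisson 95% interval of the count. Ldb1 and Lmo4 lie above 50 TPM in both libraries, Lmx1b lies between 1 and 2 TPM, and of all neighbours in the order only Lhx9 and Lmo3 have ranges that overlap.

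Among the LIM-homeodomain members, Lhx1 (ENSMUSG00000018698.11, chromosome 11, 84518284 to 84525535) was highest. This gene, also known for its part in head and kidney formation, stood at 33.02 TPM in replicate 1 and 36.70 TPM in replicate 2, a mean of 34.9 ± 2.6 TPM (SD, n = 2), from 2106 and 2434 expected counts. Its close relative Lhx5 (ENSMUSG00000029595.8, chromosome 5, 120431699 to 120441223) stood at 24.96 and 24.35 TPM, a mean of 24.7 ± 0.431 TPM (SD, n = 2). Lhx1 was above Lhx5 in both libraries and their ranges did not overlap. The ratio of Lhx1 to Lhx5 was 1.32 in replicate 1 and 1.51 in replicate 2, a log2 difference in level of 0.50 ± 0.13 (SD, n = 2). Their proteins were identical at 77.1% of aligned residues, against 34.1% to 41.7% for pairs across the Lhx1 and Lhx5, Lhx2 and Lhx9, and Lmx1b groups.

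Lhx9 (ENSMUSG00000019230.10, chromosome 1, 138825186 to 138848577) and Lhx2 (ENSMUSG00000000247.7, chromosome 2, 38339281 to 38369733) were lower. Lhx9, which is also known from gonad and limb, had 8.11 TPM in replicate 1 and 8.90 TPM in replicate 2, from 522 and 568 counts. Lhx2, also known from eye and forebrain, had 4.70 TPM in replicate 1 and 6.91 TPM in replicate 2, from 169 and 246 counts. Lhx9 was above Lhx2 in both libraries, with a ratio of Lhx2 to Lhx9 of 0.58 in replicate 1 and 0.776 in replicate 2 (log2 -0.58 ± 0.30, SD, n = 2). Their proteins were identical at 75.3% of aligned residues. Lmx1b (ENSMUSG00000038765.9, chromosome 2, 33560965 to 33640511), known from dorsal spinal neurons, serotonin neurons and dorsal limb, was the lowest member at 1.34 and 1.31 TPM. It rested on 109 and 110 counts, with a Poisson 95% interval of 1.1 to 1.62 TPM in replicate 1 and 1.08 to 1.58 TPM in replicate 2. Both values lie just above the detection threshold, and the mean of its neighbour Lhx2 was 4.38 times that of Lmx1b.

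The 5 members made up a minor share of all LIM-homeodomain RNA. The 12 LIM-homeodomain genes had summed levels of 213.72 and 264.15 TPM, of which the 5 members gave 72.13 and 78.17 TPM. The motor neuron and sensory neuron gene Isl1 alone took 40.8% of the sum on average. Lhx1 took 14.7%, as did Isl2, another gene of motor and sensory neurons, while Lhx5 took 10.4%, Lhx9 3.58%, Lhx2 2.41% and Lmx1b 0.561%. Of the 12 genes 10 were detected, and their median lay at 8.99 TPM. Lhx8 was below 1 TPM in both libraries, at 0.17 and 0.21 TPM, and Lhx6 was above it only in replicate 1, at 1.18 and 0.57 TPM; both are known from ventral forebrain neurons.

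Ldb1 (ENSMUSG00000025223.10, chromosome 19, 46031570 to 46045214), which is broadly expressed, was the highest of all members. It stood at 77.73 TPM in replicate 1 and 75.41 TPM in replicate 2, a mean of 76.6 ± 1.64 TPM (SD, n = 2), at the 90.2 percentile of protein-coding genes. Ldb2 (ENSMUSG00000039706.7, chromosome 5, 44472132 to 44799680), whose protein was identical to Ldb1 at 76.7% of aligned residues, stood at 17.66 and 16.72 TPM. The ratio of Ldb1 to Ldb2 was 4.4 in replicate 1 and 4.51 in replicate 2 (log2 2.16 ± 0.03, SD, n = 2), the smallest spread among the 6 pairs of members compared. Ldb1 thus gave 81.7% of Ldb RNA. The other partners of the Ldb complex were also detected. Ssbp3 and Ssbp2, single-stranded DNA-binding proteins that protect Ldb from degradation, stood at 113 ± 3.15 and 107 ± 2.38 TPM, and Ssbp4 at 64.5 ± 1.07 TPM. Rlim, a ubiquitin ligase that targets Ldb proteins, stood at 36.3 ± 0.721 TPM (SD, n = 2 for each). All 6 genes of this list were at 1 TPM or more, at a median of 70.6 TPM.

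Lmo4 (ENSMUSG00000028266.13, chromosome 3, 144188530 to 144205220) led the LIM-only genes, at 58.31 TPM in replicate 1 and 52.05 TPM in replicate 2, a mean of 55.2 ± 4.43 TPM (SD, n = 2). Lmo1 (ENSMUSG00000036111.7, chromosome 7, 109138572 to 109175207) had 15.14 and 16.33 TPM, and Lmo3 (ENSMUSG00000030226.8, chromosome 6, 138362918 to 138581968) had 7.20 and 8.76 TPM. The order Lmo4, Lmo1, Lmo3 was the same in both libraries and the ranges of these 3 genes did not overlap. Lmo4 was above Lmo1 by a ratio of 3.85 in replicate 1 and 3.19 in replicate 2, and above Lmo3 by 8.1 and 5.94. Lmo1 was above Lmo3 by 2.1 and 1.86, though these are the closest LMO proteins, identical at 85.3% of aligned residues, against 46.5% for Lmo1 and Lmo4 and 48.6% for Lmo3 and Lmo4. Of the RNA of the 4 LMO genes, Lmo4 gave 54.2%, Lmo1 15.5% and Lmo3 7.87%.

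The remaining 22.5% of LMO RNA was Lmo2, a gene of blood and vessel cells, at 22.9 ± 1.41 TPM (SD, n = 2). Of 7 genes of the blood complex in which Ldb1 takes part, Lmo2 included, 6 were detected, and the median of the list was 4.44 TPM. Behind Lmo2 these were Klf1 at 9.67, Tal1 at 5.5 and Gata2 at 4.44 TPM. Gata2 is also in the serotonin neuron list below, and which cells gave the RNA of these genes was not tested. Globin and other red cell genes were detected too (6 of 6, summed level 8661.09 and 8724.97 TPM). The part of blood cells in the Ldb1 level was not tested.

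Levels of the 3 classes can be set side by side because LIM-homeodomain and LMO proteins bind the same cofactors. The LIM-homeodomain sum was 2.24 times the Ldb sum in replicate 1 and 2.87 times in replicate 2 (log2 1.34 ± 0.25, SD, n = 2). The LMO sum was 1.1 and 1.08 times the Ldb sum of 95.39 and 92.13 TPM (log2 0.12 ± 0.02). The LMO sum thus lay close to the Ldb sum in both libraries, whereas the LIM-homeodomain sum exceeded it and was less alike between them. Both sums include genes outside the set. The 5 LIM-homeodomain members alone, at 72.13 and 78.17 TPM, lay below the Ldb sum in both libraries. Isl1 gave 86.02 and 109.32 TPM of the LIM-homeodomain sum. Lmo2 gave 23.90 and 21.90 TPM of the LMO sum, which would lie below the Ldb sum without it. The ratios above are of RNA levels over the whole tissue and do not measure protein or single cells.

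**Figure D2:**
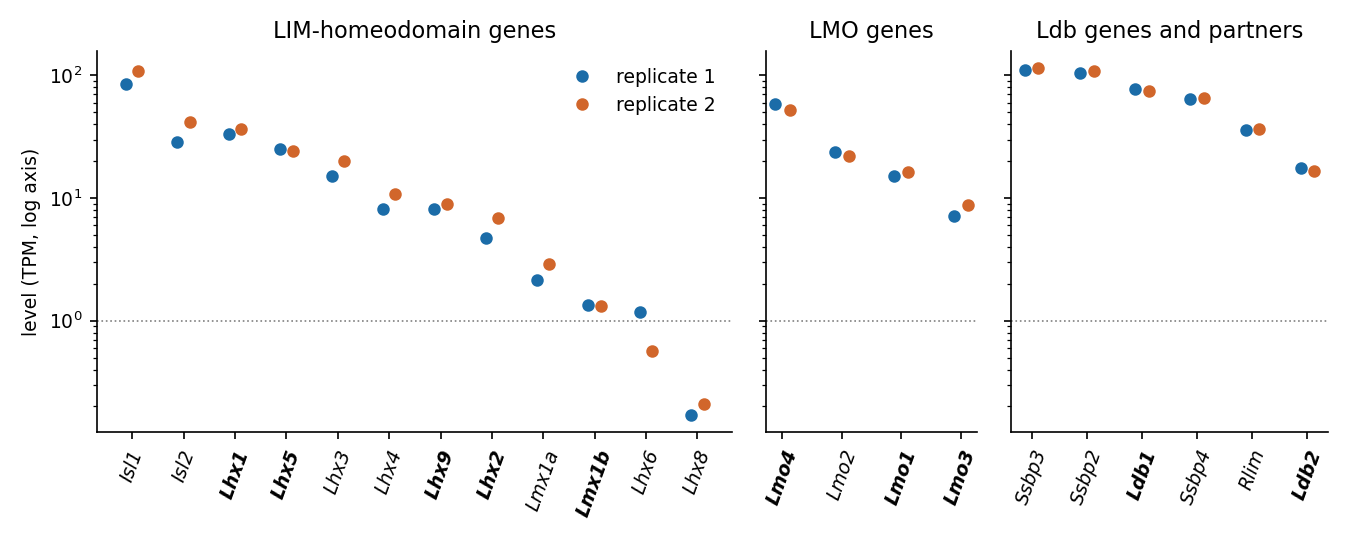
TPM (log axis) of all LIM-homeodomain genes, all LMO genes, and the Ldb genes with their partners in replicate 1 and replicate 2, members in bold. The dotted line marks the detection threshold of 1 TPM; Lhx8 lies below it in both libraries and Lhx6 in replicate 2.

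The order of all 10 members was the same in both libraries: Ldb1, Lmo4, Lhx1, Lhx5, Ldb2, Lmo1, Lhx9, Lmo3, Lhx2, Lmx1b. Lhx9 and Lmo3 did not differ beyond their spread, since their ranges over the 2 libraries overlapped. For Ldb2 and Lmo1, and for Lmo3 and Lhx2, the ranges were separate but the counting intervals overlapped. The other 6 neighbouring pairs were separate by both measures.

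Genes of the interneuron classes that carry these factors were mostly detected, beside 59.9% of all protein-coding genes. Lists this short say little against that share, so their counts are given as description. All 4 genes of the dI1 class were detected, with Pou4f1 (also a sensory neuron gene) at 68.8, Atoh1, the selector of dI1 progenitors, at 12.8, Barhl1 at 7.69 and Barhl2 at 3.17 TPM. Of 12 genes of the Lhx1 and Lhx5 classes 10 were detected. The median of the list was 4.16 TPM, and it was led by Foxp2 at 24.5, Pax8 at 20.3, the inhibitory selector Ptf1a at 10.5 and Pax2 at 6.06 TPM. Evx2, a V0 gene, was below 1 TPM in both libraries, at 0.42 and 0.54 TPM. Of 6 genes of the dI5 class, which carries Lmx1b, 5 were detected; besides Pou4f1 they were led by Tlx3 at 20, Prrxl1 at 10.2 and Lbx1 at 6.04 TPM. Tlx1 stood at 0.56 and 0.23 TPM. Lmx1b, at 1.33 TPM, was lower than each of Tlx3, Prrxl1 and Lbx1 in both libraries. Serotonin neuron genes were mostly low: 2 of 5 were detected, Gata3 and Gata2, which other neurons also express, at 6.95 and 4.44 TPM, while Tph2, the enzyme of serotonin synthesis, had 0.25 and 0.09 TPM. The serotonin factor Fev had 0.15 TPM from 3 counts in replicate 1 and 0 counts in replicate 2, where 3 counts would be 0.194 TPM.

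Several members are also expressed outside the neural tube, so markers of those sites are given, again beside 59.9% of protein-coding genes detected. Of 6 limb mesenchyme genes 3 were detected, Msx1 at 43.9, Prrx1 at 27.2 and Pitx1 at 3.04 TPM. The list had summed levels of 78.60 and 70.76 TPM, most of which came from Msx1 (44.00 and 43.75 TPM). Whether the Msx1 RNA came from limb cells was not tested. The limb genes Tbx5 and Hand2 were at 0.24 and 0.115 TPM. Of 6 genes of mesonephros and gonad 3 were detected (summed level 35.95 and 30.28 TPM), and the gonad factor Nr5a1 was at 0.07 TPM. Pax8 and Wt1 of this list are also in that of the Lhx1 and Lhx5 classes, and Pax8 gave 20.05 and 20.60 TPM of the sum. Osr1, the other detected gene, is in none of the interneuron lists and gave 12.69 and 7.87 TPM. Of 6 eye and forebrain genes only Emx2 was detected (summed level 4.63 and 2.35 TPM), and Vax1 had 0 counts in both libraries, where 3 counts would be 0.315 and 0.305 TPM. Of 6 sensory ganglion genes 5 were detected (summed level 192.71 and 241.94 TPM). Most of that sum came from Isl1 (86.02 and 109.32 TPM) and Pou4f1 (61.42 and 76.10 TPM). Isl1 is also a motor neuron gene, and Pou4f1 is also in the dI1 and dI5 lists. Avil, the gene of this list that was not detected, was at 0.43 and 0.63 TPM. The part of these tissues in the members' levels was not tested.

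The pools were compared by the ratio of replicate 2 to replicate 1 in counts scaled by TMM, which centres most genes on no change. Lhx2 was the only member past 1.3-fold, with a ratio of 1.37 and a counting interval of 1.12 to 1.68. That is 1 of 10 members, against 4.26% of 12352 genes with a mean of 100 counts or more (262 higher and 264 lower in replicate 2). With so few members these shares cannot be set apart. With a single library on each side the ratio has no replicate check. The authors' effective length for Lhx2, by which TPM divides the counts, was 2067.74 bases in replicate 1 and 1983.00 bases in replicate 2.

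Lhx1 was higher in replicate 2 by a ratio of 1.09 (counting interval 1.03 to 1.15), and Lmo4 was lower by a ratio of 0.871 (0.807 to 0.939). The intervals of the other 7 members included 1, and their ratios ran from 0.919 for Ldb2 to 1.11 for Lmo3. Other genes and lists differed beside Lhx2. Isl2 (ratio 1.4), the dI5 and sensory gene Prrxl1 (1.38) and the sensory ganglion gene Prph (1.33) were higher in replicate 2. The summed levels of the sensory ganglion, dI1 and dI5 lists were also higher. Pou4f1, at a ratio of 1.173, is in each of these lists. The other dI1 genes had ratios of 1.096 for Atoh1, 0.856 for Barhl1 and 0.927 for Barhl2. Lower past 1.3-fold were Pitx1 (0.434), Osr1 (0.604), Prrx1 (0.760) and the red cell gene Epor (0.766). The summed levels of the eye and forebrain, limb and mesonephros lists were lower. The part of these genes and lists in the Lhx2 ratio was not tested. Scaling to the spike-ins moved the median of all genes by 0.20 on the log2 scale and gave 1431 genes higher and 82 lower past 1.3-fold, against 262 and 264. Every member shifts by about that median, so the direction of ratios near no change depends on the scaling. Lhx5 went from log2 -0.08 to 0.12, Ldb1 from -0.08 to 0.12, Ldb2 from -0.12 to 0.08 and Lmx1b from -0.07 to 0.12. Lmo4, lower in replicate 2 under TMM at log2 -0.20, was at 0.00 on the spike-in scale.

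**Figure D3:**
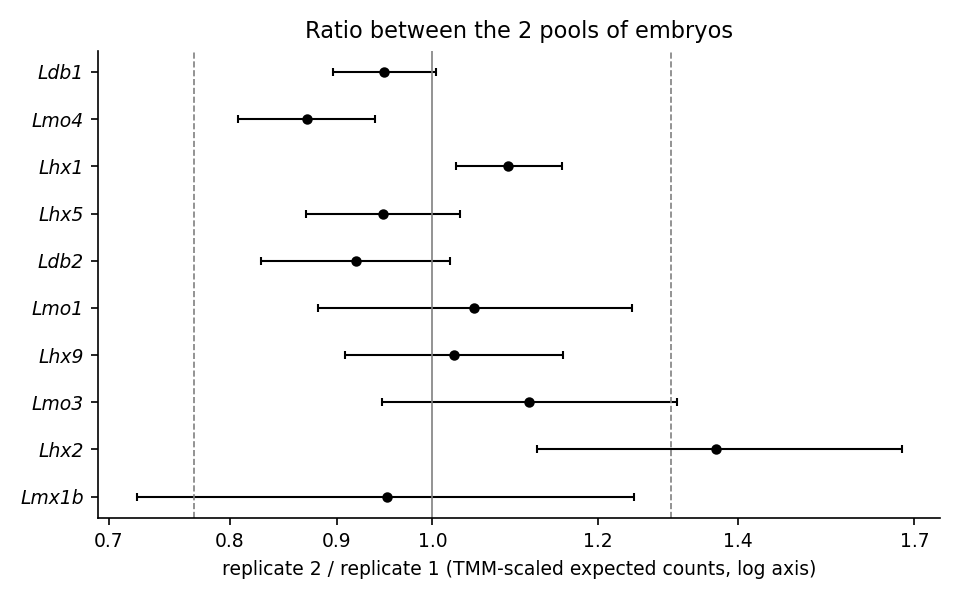
Ratio of replicate 2 to replicate 1 in TMM-scaled expected counts (log axis), with bars for the Clopper-Pearson 95% interval, which covers counting error only. The solid line marks no change and the dashed lines 1.3-fold either way; Lhx2 at 1.37 is the only member outside the dashed lines.

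Transcript shares (IsoPct, the authors' estimate of each transcript's percent of its gene) were then compared. There were 6 members with several transcripts in the files and a mean level from 5 TPM upward. The leading transcript was shared by both libraries in 5 of these 6, and in 92.7% of 8016 genes of that kind. The exception was Lmo4, whose main transcripts were nearly level. Lhx5, Ldb2 and Lmo1 have a single transcript in the files, and Lmx1b lay below the level minimum. Lhx1 came almost entirely from Lhx1-201, at 96.96% and 98.30%. Lmx1b-201 was given all of Lmx1b in both libraries.

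Lhx9 had forms that differ in the DNA-binding part of the protein. Lhx9-202 led at 47.60% and 44.75%; it encodes 388 residues and holds the conserved recognition helix motif of homeodomains at residues 305 to 312. Lhx9-201 followed at 35.14% and 33.62%. It encodes 330 residues, the first 312 of which are those of Lhx9-204, followed by 18 residues of its own, and the motif was not found in it. Lhx9-204, at 8.98% and 11.66%, encodes 397 residues and holds the motif at 314 to 321. Its share is poorly determined, with deposited intervals of 0.000377 to 1.59 TPM in replicate 1 and 2.13e-05 to 2.01 TPM in replicate 2. Protein-coding transcripts with the motif summed to 56.5% ± 0.12 of Lhx9 RNA and those without it to 34.4% ± 1.07 (SD, n = 2), with 9.12% ± 1.2 in transcripts annotated as not protein-coding. The level of Lhx9-201 had a deposited interval of 1.41 to 2.92 TPM in replicate 1 and that of Lhx9-202 one of 3.16 to 4.27 TPM, so these did not overlap; no source used here states the confidence level of these deposited intervals. Lhx9-202 and Lhx9-201 start 5262 bases apart, at annotated positions 138847719 and 138842457 of chromosome 1.

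Lhx2 was led by Lhx2-201 at 65.24% and 58.96%, the full-length form of 406 residues. Lhx2-202, whose annotated reading frame has no stop codon, took 20.93% and 17.00%, with a deposited interval in replicate 1 from 0.0479 to 1.99 TPM. Lhx2-203, which encodes 365 residues that match the end of Lhx2-201, took 6.09% and 12.36%. At 169 and 246 counts these minor shares are poorly determined.

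Ldb1 had 4 transcripts at 10% or more in a library. Ldb1-201 led at 49.72% and 42.27% and encodes 375 residues. Ldb1-206, at 33.43% and 30.62%, encodes the same protein short of 2 residues after position 297. Ldb1-205, at 9.84% and 12.49%, encodes 319 residues, shares the first 299 with Ldb1-201 and ends in 20 others in place of the last 76. The LIM-interaction domain of Ldb proteins lies near their C-terminus. Ldb1-208, at 3.77% and 10.97%, adds 36 residues at the N-terminus. Of the 4 it had the largest ratio between the libraries, and its deposited interval in replicate 1 ran from 0.000676 to 8.38 TPM and in replicate 2 from 1.51 to 14.6 TPM, so they overlapped. The 2 main Ldb1 starts lie 300 bases apart, and the start of Ldb1-205 lies 5733 bases downstream of that of Ldb1-206.

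Lmo3 was split among starts that span 160516 bases. Lmo3-207, the form with 156 residues, took 42.46% and 38.17%. Lmo3-206 took 22.71% and 28.15%, Lmo3-204, from the distal start whose promoter is printed above, 24.36% and 21.15%, and Lmo3-202 10.46% and 11.27%. These last 3 encode the same 145 residues and lack the first 11 of Lmo3-207. The order of Lmo3-204 and Lmo3-206 was not the same in the 2 libraries. Lmo3-202 rested on 12 and 17 counts, with deposited intervals of 2.66e-05 to 2.15 TPM in replicate 1 and 3.97e-05 to 2.36 TPM in replicate 2. In replicate 1 the interval of Lmo3-207, 1.82 to 3.57 TPM, overlapped that of Lmo3-206, 0.622 to 2.4 TPM. These shares are therefore poorly determined.

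Lmo4 came in near-equal parts from 2 annotated starts that lie at or near those shown above. At the upstream start, Lmo4-201 begins at 144205220 and the RefSeq start is at 144205255. The upstream start gave 48.4% of Lmo4 RNA in replicate 1 and 51.3% in replicate 2, and the internal start 51.6% and 48.4%, means of 49.9% ± 2.06 and 50% ± 2.29 (SD, n = 2). Their leading transcripts, Lmo4-201 and Lmo4-203, start 2824 bases apart and encode the same 165 residues, so the choice of start leaves the annotated protein as it is. In level, the upstream start gave 28.23 and 26.71 TPM and the internal start 30.09 and 25.17 TPM. The ranges overlapped, so neither start was above the other beyond the spread of the libraries. Lmo4-203 is 1338 bases long in the files and 1417 in the annotation used for coordinates, so its start in the files may lie elsewhere.

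**Figure D4:**
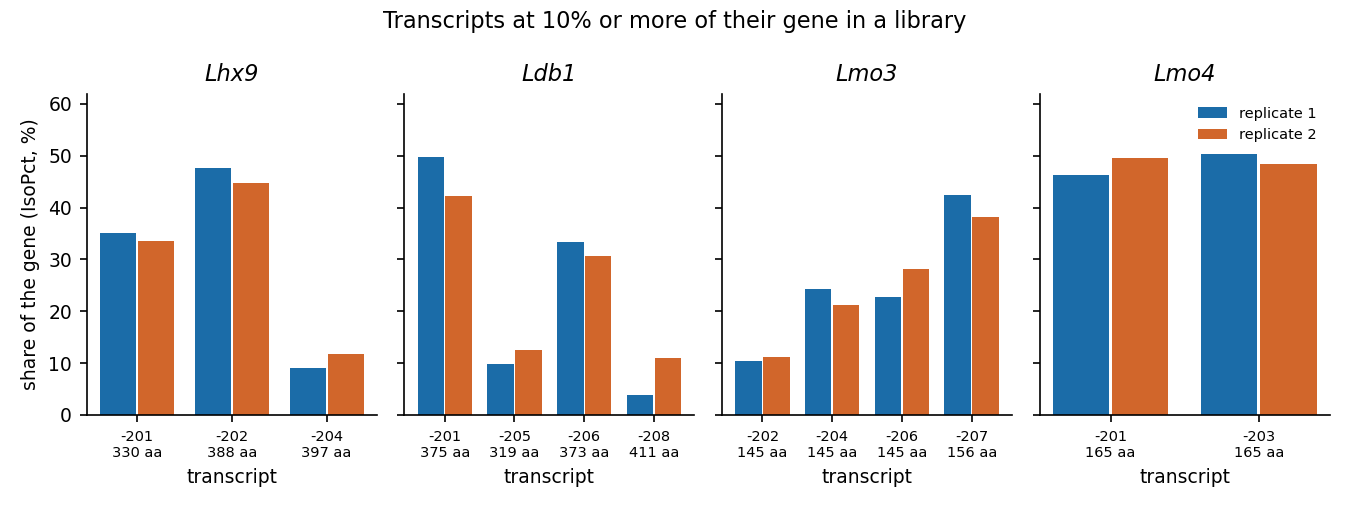
Share of each transcript in its gene (IsoPct, percent) for Lhx9, Ldb1, Lmo3 and Lmo4 in replicate 1 and replicate 2, for transcripts at 10% or more in a library, with the length of the encoded protein. The 2 Lmo4 bars are nearly level, and Ldb1-208 stands at 3.77% in replicate 1 and 10.97% in replicate 2.

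Sequence shared with other genes was searched for, since such reads could be assigned to the wrong gene. No window of 100 bases of any of the 10 genes occurred on the same strand in another gene, close relatives included. Ldb1 shared 1.65% of its windows with the opposite strand of Pprc1, a coactivator gene that overlaps its exons by 177 bases and stood at 31.95 and 36.01 TPM. Lhx5 overlapped the antisense gene Gm27199 by 69 exon bases, which stood at 9.35 and 10.96 TPM. Reads from these overlaps cannot be told apart if the libraries do not keep strand.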

How the data were processed

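Total RNA-seq of mouse neural tube was available as 1 group of 2 libraries. Expected counts, estimated reads that need not be whole, were deposited by the authors per gene and transcript on mm10 with GENCODE M4, per the deposited file descriptions. TPM values were deposited by the authors as shares per length that sum to a common total, spike-ins included. The authors also deposited, as a percent (IsoPct), how much of a gene each transcript makes up. The aligner and quantifier, and whether strand is kept, were not given in the sources used here. The labels name both total RNA-seq and a SmartSeq protocol, and which describes the libraries is not settled here.

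The 10 genes were found by symbol in GENCODE M21 (GRCm38, the same build as mm10), which matched 42462 of 43346 gene identifiers. The members and the gene lists were chosen with earlier results of these data known. All 10 members are named, with the 4 highest genes of each other list and up to 2 genes under 1 TPM in both libraries, and transcripts at 10% or more of their gene in a library. Genes outside this rule that are named were chosen after their values were seen. Rounded expected counts were scaled with edgeR 4.0.16 (R 4.3.3), whose TMM factors were 1 and 0.9998. Ratios between the libraries were taken on the log2 scale after adding a prior count of 2, over genes with a mean of 100 counts or more. DESeq2 1.42.0 gave alternative size factors. The ratio step was tested on simulated counts. Annotated starts within 100 bases were joined. Reading frames were translated and aligned with Biopython 1.88. Total expected counts were 27638068 and 29166901. The 95% intervals are exact Poisson intervals for levels and Clopper-Pearson intervals for ratios. They cover counting error only, since reads lack molecular identifiers and are not independent molecules. No p-value was computed, because 2 values against 2 cannot go below an exact permutation p of 0.333.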

Additional observations from a re-analysis of the deposited data

How the results depend on the processing

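Over 44 results and 184 alternatives, 155 values stayed within a set limit, 29 moved beyond it, and none of the values called past a threshold turned direction. The limit was the SD of the 2 libraries for levels, ratios between genes or sums, and shares. It was the counting interval for ratios between the libraries, and 1.5-fold for counts of members. Leaving out 1 of 2 libraries always stays within their SD, so those alternatives could not move and are no check on levels, ratios between genes or shares. Ratios between genes from expected counts per effective length repeat those from TPM. Total-count scaling nearly repeats TMM, whose factors were 1 and 0.9998. These alternatives are among the 155 and are no independent check either. All 10 members were detected, and kept their order, under the settings tried for those results, except that 8 reached a detection level of 5 TPM. The log2 ratio of Ldb1 to Ldb2 was 2.09 with log2(TPM + 1), and that of the LMO sum to the Ldb sum was 0.15 from posterior mean TPM. Past 1.5-fold, 0 members differed between the pools. The Lhx9 share without the homeodomain motif, a result added after seeing the data, was 31.8% from posterior mean TPM. Joining starts within 500 bases gave the start of Ldb1-201 85.4% of Ldb1, and joining only those within 1 base gave the start of Lhx9-201 34.4% of Lhx9. Rescaling TPM without spike-ins and numbered entries raised every member, Ldb1 to 87.5 TPM, and the share of Lmx1b-201 was 78.5% from posterior means. Of 40 alternatives for member levels 12 moved, and those that left out 1 library could not. Scaling to spike-ins gave 1431 genes higher and 82 lower, against 262 and 264. Low depth, with mean counts of 109.5, 207.5, 270.5 and 305.5, limits Lmx1b, Lhx2, Lmo1 and Lmo3. No paired analysis was possible because the series holds 1 group.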
